A study of Mus musculus with 6 samples.

Results

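The genes described here encode parts of the machine that copies DNA at the replication fork: the polymerase alpha-primase complex (Pola1, Pola2, Prim1, Prim2), the catalytic subunit of polymerase epsilon (Pole), the sliding clamp (Pcna), subunits of the clamp loader (Rfc3, Rfc4), the flap nuclease Fen1 and the DNA ligase Lig1. They were chosen by name, with earlier results of these data known. Every probe set whose platform annotation gave 1 of these symbols and no other was taken. This gave 16 of the 22626 non-control probe sets of the table, for 10 of its 12393 genes. A probe set is the group of short probes that reports 1 transcript on an Affymetrix array, and 6 of the 10 genes had 2 of them.

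The cells were primary hepatocytes from mice of the C57BL/6 strain, wild type and 3 weeks of age. They were stained with Hoechst 33342, a dye that binds DNA in living cells, and sorted by flow cytometry into a diploid and a tetraploid fraction, and total RNA was taken straight after the sort. Each fraction was measured on 3 arrays, and the labels name no other treatment. The sort set the fractions by DNA content, so diploid cells that had finished copying their DNA would fall in the tetraploid gate. The replicates are labelled biological, but no label says that each was a different mouse, so p-values cover only the spread among these samples, part of which may be technical.

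At a fork, polymerase alpha-primase lays down a short primer of RNA and DNA, the clamp loader opens the ring of Pcna and closes it around the primed strand, and the clamp holds the main polymerases on the template. Polymerase epsilon copies the leading strand and polymerase delta the lagging strand, where Fen1 trims the flap of each Okazaki fragment and Lig1 seals the nick. Cells make most of these transcripts in G1 and S phase, under control of E2F transcription factors, and Pcna is widely used as a marker of proliferating hepatocytes. Hepatocytes become tetraploid when a round of DNA copying is not followed by a complete division, a step that is common in mouse liver around weaning.

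The stretches of DNA upstream of the start sites are shown because these genes are classical E2F targets and differed in the same direction between the fractions. RefSeq promoters of build GRCm38.p6 were found for 8 of the 10 genes, in 11 entries, and the 250 bases before each start were searched on both strands. The 3 stretches below run 5′ to 3′ in the direction of the gene, with E2F words and CCAAT boxes in capitals. Pola1 and Rfc3 are shown as the 2 genes with an E2F word, and Pcna as the gene with the largest difference.
Pola1, chrX:93632156-93632405, minus strand: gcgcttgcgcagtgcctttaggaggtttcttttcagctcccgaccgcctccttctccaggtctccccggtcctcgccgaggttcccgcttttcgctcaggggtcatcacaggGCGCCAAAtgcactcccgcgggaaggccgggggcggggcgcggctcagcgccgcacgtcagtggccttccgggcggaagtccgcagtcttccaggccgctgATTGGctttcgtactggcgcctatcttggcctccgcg
Rfc3, chr5:151651209-151651458, minus strand: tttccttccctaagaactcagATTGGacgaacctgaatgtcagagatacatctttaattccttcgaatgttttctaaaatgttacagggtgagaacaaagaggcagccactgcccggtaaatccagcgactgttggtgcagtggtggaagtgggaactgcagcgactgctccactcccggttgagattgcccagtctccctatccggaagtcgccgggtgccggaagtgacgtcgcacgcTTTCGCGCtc
Pcna, chr2:132253181-132253430, minus strand: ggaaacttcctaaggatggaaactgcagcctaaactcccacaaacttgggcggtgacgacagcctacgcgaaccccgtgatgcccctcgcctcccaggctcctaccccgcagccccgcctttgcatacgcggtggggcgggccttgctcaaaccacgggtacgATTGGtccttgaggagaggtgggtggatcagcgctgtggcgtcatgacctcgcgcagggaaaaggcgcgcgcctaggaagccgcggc
The E2F words searched were TTTGGCGC, TTTCCCGC, TTTCGCGC and TTTGCCGC, and none of their matches overlapped a match to another motif. The word of Pola1, TTTGGCGC on the opposite strand, lay 138 to 131 bases before the start, and that of Rfc3, TTTCGCGC, 10 to 3 bases before it. They stood in 2 of the 11 member entries, where 1.86% of all 32851 promoter entries held 1 or more. CCAAT was found in 4 of the 11, those of Pola1, Rfc3, Pcna and Prim1, against 33.8% of all entries. The GC box GGGCGG was found in 5 of the 11, against 32.7%. The TATA box TATAAA was found in 1 of the 11, against 12.4%, and the CHR element, searched as TTTGAA or TTCGAA, in 2 of the 11, against 17.1%. A match is a description of the letters only.

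All 10 genes had a lower mean in tetraploid than in diploid hepatocytes. By the brightest probe set of each gene (the one with the highest mean over the 6 arrays), the log2 difference, tetraploid minus diploid, ran from -0.84 for Pcna to -0.23 for Pola2, which are levels 1.79-fold and 1.18-fold lower. The median over the 10 genes was -0.60, beside -0.02 over all 12393 genes, of which 55.5% had a lower mean in tetraploid cells. The fit was limma's, over all 22626 probe sets, and 0 of the 10 genes passed an adjusted p of 0.05, as did 0% of all genes (0 of 12393). At an unadjusted limma p under 0.05, 9 of the 10 were lower, where 4.02% of all genes were lower and 1.84% higher at that threshold. The fractions did not overlap for 8 of the 10, with the 3 tetraploid arrays below the 3 diploid ones, as for 7.43% of all genes, while 4.37% lay apart in the other direction. A difference of over 1.5-fold downwards was found for 5 of the 10 and for 0.363% of all genes. The members were chosen with earlier results known, so the counts beside these shares are a description and no test. These are bulk samples, and a value is relative to the other transcripts of its array. Fewer cells copying DNA and a lower share of each RNA within the cells cannot be told apart. The amount of RNA per cell was not measured.

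**Figure D1:**
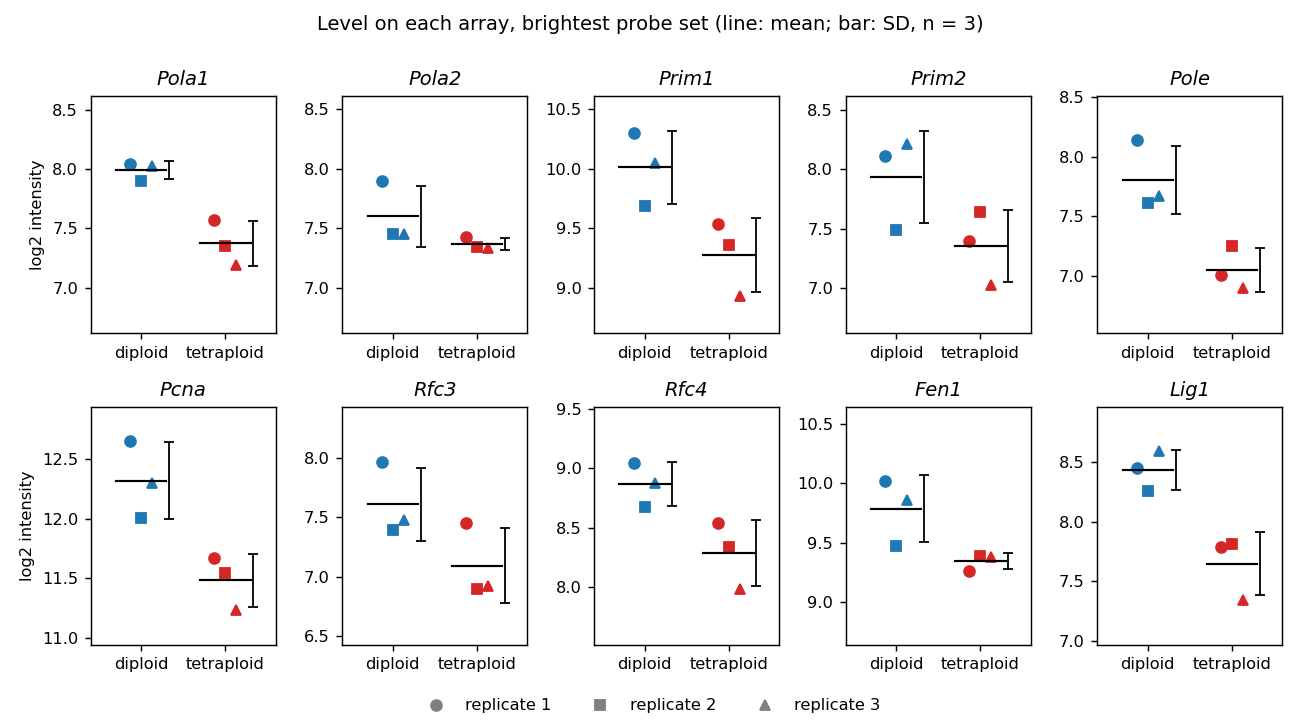
Log2 intensity of each of the 10 genes on the 6 arrays, by the brightest probe set, with diploid arrays in blue and tetraploid arrays in red. Lines are fraction means and bars the SD over 3 arrays, every panel spans the same range of log2 units, and the fractions are apart for all genes except Prim2 and Rfc3.

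Pola1 encodes the catalytic subunit of polymerase alpha, which extends the RNA primer with DNA. Its log2 intensities were 8.04, 7.90 and 8.02 on diploid replicates 1 to 3 and 7.57, 7.35 and 7.19 on tetraploid replicates 1 to 3. The diploid arrays lay close together and all tetraploid arrays lay below them, with a gap of 0.33. The log2 difference was -0.61 ± 0.11 (SE; 95% interval from -0.86 to -0.37; limma adjusted p = 0.281). By unadjusted p it stood at rank 31 of the 22626 probe sets, the highest place of any member.

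Pola2 encodes the regulatory subunit that tethers polymerase alpha to the fork. Its brighter probe set read 7.90, 7.45 and 7.46 on the diploid arrays and 7.43, 7.34 and 7.34 on the tetraploid ones. The fractions were apart by only 0.03, and diploid replicate 1 stood above the other 5 arrays. It differed by -0.23 ± 0.13 (SE; 95% interval from -0.52 to 0.06; limma adjusted p = 0.789), and -0.09 without diploid replicate 1. The second probe set was dim, with a mean log2 intensity of 4.53, below the cutoff of 4.82 for the dimmest 25% of probe sets, and differed by -0.04 with overlapping fractions. Pola2 was the 1 gene of the 10 whose interval included 0.

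Prim1 encodes the catalytic subunit of primase, which makes the RNA part of the primer. Log2 intensities were 10.30, 9.69 and 10.05 on the diploid arrays and 9.53, 9.36 and 8.93 on the tetraploid arrays. Every tetraploid array was below every diploid one, and tetraploid replicate 3 was the lowest. On the log2 scale the difference was -0.74 ± 0.19 (SE; 95% interval from -1.17 to -0.31; limma adjusted p = 0.501). The second probe set, at 9.65 ± 0.27 (SD, n = 3) on the diploid arrays and 9.03 ± 0.27 on the tetraploid arrays, differed by -0.62 and also did not overlap.

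Prim2 encodes the large subunit of primase, which holds the catalytic subunit on the template. Log2 intensities were 8.11, 7.49 and 8.21 on the diploid arrays and 7.39, 7.64 and 7.03 on the tetraploid arrays. The fractions overlapped, because diploid replicate 2 lay below tetraploid replicate 2. The difference in log2 was -0.58 ± 0.21 (SE; 95% interval from -1.07 to -0.10; limma adjusted p = 0.696). The second probe set differed by -0.40 ± 0.13 (SE) without overlap, by a gap of 0.03. The 4 genes of the complex differed by -0.74 to -0.23, with a median of -0.60.

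Pole, the catalytic subunit of polymerase epsilon, had log2 intensities of 8.14, 7.61 and 7.67 on the diploid arrays and 7.001, 7.25 and 6.89 on the tetraploid arrays. The fractions were apart by 0.36. The log2 difference was -0.76 ± 0.15 (SE; 95% interval from -1.11 to -0.41; limma adjusted p = 0.328), a level 1.69-fold lower in tetraploid cells. Of the other polymerase epsilon subunits, Pole2, which binds the catalytic subunit directly, differed by -0.66 ± 0.16, and the small histone-fold subunits Pole3 and Pole4 by -0.06 ± 0.08 and -0.10 ± 0.14 (SE, n = 3 per fraction). Pole2 had fractions that did not overlap, and Pole3 and Pole4 had fractions that did. Pole3 and Pole4 also belong to chromatin complexes outside the fork.

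Pcna, the sliding clamp, had log2 intensities of 12.65, 12.01 and 12.30 on the diploid arrays and 11.67, 11.54 and 11.23 on the tetraploid arrays. As deposited intensities these were 6442, 4117 and 5057 against 3264, 2984 and 2407. All tetraploid arrays were lower, by a gap of 0.33, and diploid replicate 1 was the highest array and tetraploid replicate 3 the lowest. The log2 difference was -0.84 ± 0.17 (SE; 95% interval from -1.24 to -0.44; limma adjusted p = 0.337). It was -0.67 without diploid replicate 1 and -0.996 without diploid replicate 2.

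Rfc3 and Rfc4 encode small subunits of the clamp loader, a ring of ATPases that opens Pcna. Rfc3 read 7.96, 7.39 and 7.48 on the diploid arrays and 7.46, 6.90 and 6.92 on the tetraploid arrays. Tetraploid replicate 1 lay among the diploid arrays, so the fractions overlapped. The log2 difference of Rfc3 was -0.52 ± 0.19 (SE; 95% interval from -0.96 to -0.08; limma adjusted p = 0.696), and -0.34 without diploid replicate 1. Its second probe set differed by -0.19 ± 0.20 (SE), with overlap and with diploid replicate 1 again the highest array. The 2 probe sets of Rfc3 lay 0.33 apart in their difference, the widest gap between probe sets of a member.

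Rfc4 read 9.05, 8.68 and 8.88 on the diploid arrays and 8.54, 8.34 and 7.99 on the tetraploid arrays. The fractions did not overlap, and the log2 difference was -0.58 ± 0.15 (SE; 95% interval from -0.93 to -0.23; limma adjusted p = 0.516). Its second probe set, of a kind that can match several transcripts, differed by -0.61. The other clamp loader subunits were lower on average too. The large subunit Rfc1 differed by -0.26 ± 0.08, Rfc2 by -0.39 ± 0.09 and Rfc5 by -0.21 ± 0.14 (SE, n = 3 per fraction), with overlap in Rfc5 alone of these. The 5 subunits had a median of -0.39.

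Fen1, which cuts the displaced flap of an Okazaki fragment, read 10.02, 9.47 and 9.86 on the diploid arrays and 9.26, 9.39 and 9.38 on the tetraploid arrays. The fractions were apart by 0.09 and the tetraploid arrays lay close together. On the log2 scale the difference was -0.44 ± 0.14 (SE; 95% interval from -0.75 to -0.13; limma adjusted p = 0.623). That brighter probe set is of a kind that can match other transcripts. The dimmer one, without that mark, read 8.03, 7.59 and 7.74 on the diploid arrays and 7.11, 7.34 and 6.75 on the tetraploid arrays. It differed by -0.72 ± 0.16 (SE; limma adjusted p = 0.385), over 1.5 times the difference of the brighter probe set.

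Lig1, the ligase that joins Okazaki fragments, read 8.46, 8.26 and 8.60 on the diploid arrays and 7.79, 7.81 and 7.34 on the tetraploid arrays. The gap between the fractions, 0.44, was the widest of the 10 genes. The difference in log2 was -0.79 ± 0.15 (SE; 95% interval from -1.12 to -0.45; limma adjusted p = 0.281), a level 1.73-fold lower in tetraploid cells. Lig3, a ligase of repair and of mitochondria, differed by 0.11 ± 0.13 (SE), with overlapping fractions.

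**Figure D2:**
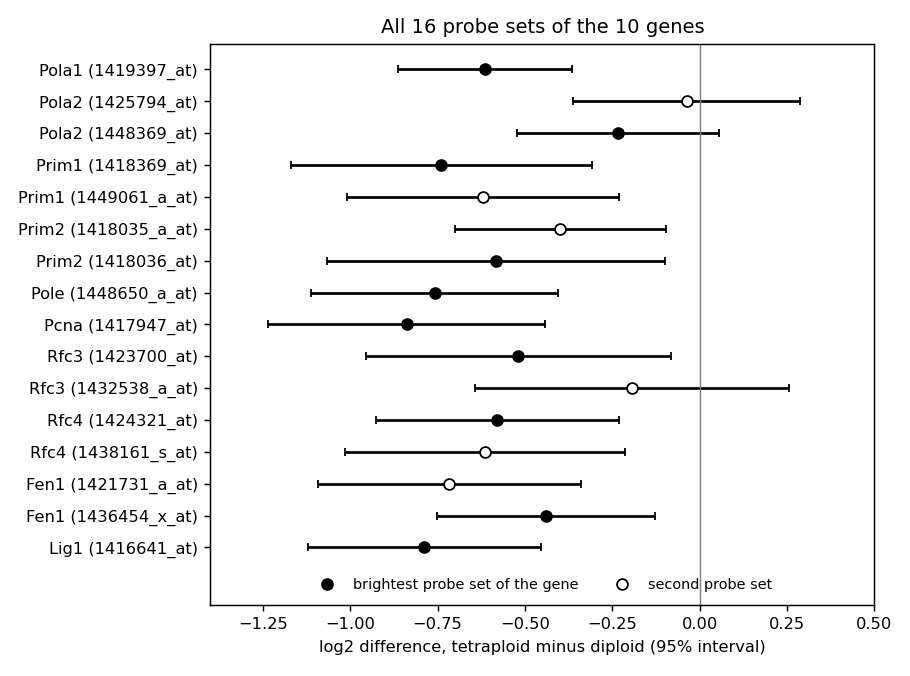
Log2 difference, tetraploid minus diploid, of all 16 probe sets with its 95% interval from the limma fit; filled points are the brightest probe set of a gene and open points the second. All 16 points lie below 0, and the intervals of both Pola2 probe sets and of the dimmer Rfc3 probe set include 0.

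Over all 16 probe sets, 16 had a lower mean in tetraploid cells, 12 did not overlap (6.77% of all probe sets were lower without overlap) and 13 were lower at an unadjusted limma p under 0.05 (3.55% of all probe sets). Both probe sets had the same sign in each of the 6 genes that had 2. The 95% intervals of the 10 genes shared the stretch from -0.52 to -0.45. Overlap of separate intervals does not compare genes read on the same arrays, and the order of the genes by difference was not tested. The difference exceeded the range of the diploid arrays and that of the tetraploid arrays in 6 of the 10 genes, namely Pola1, Prim1, Pole, Pcna, Rfc4 and Lig1. Pola2, Prim2, Rfc3 and Fen1 differed by less than the range of the diploid arrays.

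The genes varied together within each fraction. Diploid replicate 2 was the lowest diploid array for 10 of the 10 genes, and for 36.3% of all genes. Diploid replicate 1 was the highest diploid array for 8 of them, and for 44.5% of all genes. Tetraploid replicate 3 was the lowest tetraploid array for 8, and for 30.4% of all genes. Centred on each gene's own mean over the 6 arrays, the mean of the 10 genes was 0.53, 0.06 and 0.32 on diploid replicates 1 to 3 and -0.17, -0.24 and -0.51 on tetraploid replicates 1 to 3. The nearest arrays of the fractions were thus diploid replicate 2 and tetraploid replicate 1. The SD over the diploid arrays ran from 0.08 for Pola1 to 0.39 for Prim2, beside a median of 0.11 over all genes.

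Other genes of the fork, from a list of 34 of which 27 were measured, were lower on average in 25 cases and higher in 2. Adjusted over all probe sets 0 passed, 15 were lower and 0 higher at an unadjusted limma p under 0.05, and 13 did not overlap, all lower. The median log2 difference was -0.34. The smallest p-values belonged to Cdc45, part of the replicative helicase, at -0.64 ± 0.09, Timeless, which protects stalled forks, at -0.999 ± 0.15, Wdhd1, which couples polymerase alpha to the helicase, at -0.72 ± 0.12, and Rpa2, a subunit of the single-strand binding protein RPA, at -0.78 ± 0.16 (SE, n = 3 per fraction). Timeless read 8.28, 7.87 and 7.76 on the diploid arrays and 7.17, 6.88 and 6.87 on the tetraploid arrays, with no overlap.

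Polymerase delta, the partner of Pcna and Fen1 on the lagging strand, was measured through 4 subunits, all lower on average. The catalytic subunit Pold1 differed by -0.47 ± 0.14, Pold2 by -0.30 ± 0.13 and Pold3 by -0.34 ± 0.08 (SE), each without overlap, and Pold4 by -0.10 ± 0.09 with overlap. The brightest probe set of Pold1 is of a kind that can match several transcripts. The 3 topoisomerases of the list were divided, with Top1 at 0.05 ± 0.15, Top2b at 0.08 ± 0.08 and Top2a at -0.53 ± 0.26 (SE), all with overlapping fractions.

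The list of repair and translesion polymerases and other ligases and the list of mitochondrial DNA replication had medians near 0. Of 11 measured repair and translesion polymerases, ligases and cofactors, 5 were lower and 6 higher on average, with a median of 0.03, a range from -0.22 to 0.20, and 0 without overlap. The smallest p-values were those of the translesion polymerases Polk at 0.20 ± 0.09, Poli at -0.22 ± 0.11, Rev1 at 0.14 ± 0.09 and Polh at -0.17 ± 0.12 (SE). Of 10 measured genes that copy or maintain mitochondrial DNA, 6 were lower and 4 higher, with a median of -0.02, a range from -0.14 to 0.14, and 0 without overlap. Among these, Polg, the mitochondrial DNA polymerase, differed by -0.14 ± 0.09, Rnaseh1, which removes RNA primers, by -0.13 ± 0.08, Tfb2m, a mitochondrial transcription factor, by 0.14 ± 0.11, and Top1mt by 0.06 ± 0.08 (SE). In both lists 0 genes passed an unadjusted limma p of 0.05.

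**Figure D3:**
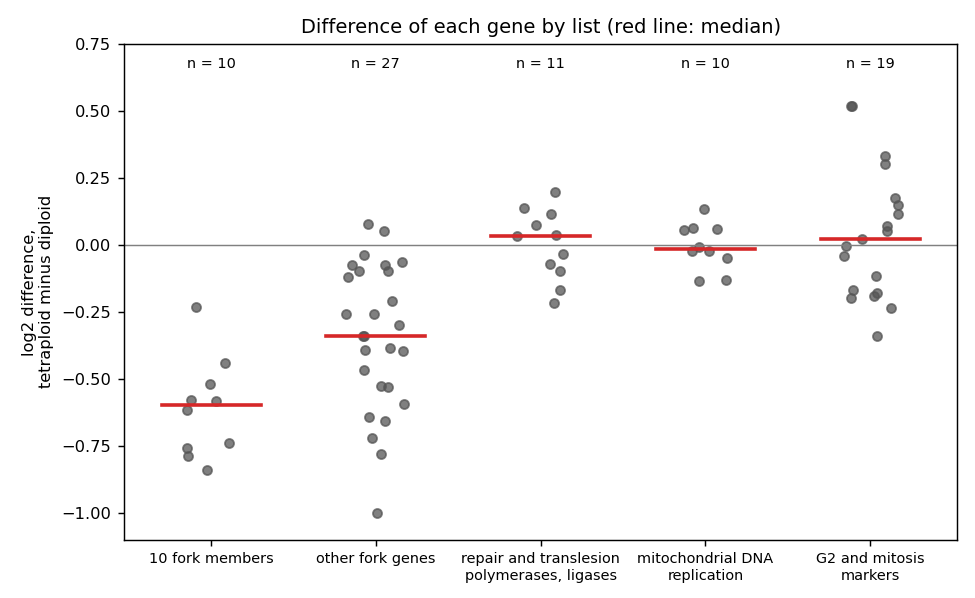
Log2 difference, tetraploid minus diploid, of each measured gene by list, with points spread sideways at random and the list's median as a red line. The medians were -0.60 for the 10 fork members, -0.34 for the other fork genes, 0.03 and -0.02 for repair polymerases and mitochondrial DNA replication, and 0.02 for G2 and mitosis markers.

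Markers of G2 and mitosis followed another order of arrays. Of 19 measured, 9 were lower and 10 higher on average, with a median of 0.02, and 0 passed an unadjusted limma p of 0.05. The smallest p-values were those of the mitotic kinase Aurkb at -0.34 ± 0.15, the kinetochore motor Cenpe at 0.52 ± 0.27, the cyclin Ccnb2 at 0.52 ± 0.28 and the spindle factor Tpx2 at 0.30 ± 0.18 (SE), all with overlap. The centred mean of these markers was -0.02, -0.32 and 0.28 on diploid replicates 1 to 3 and 0.02, 0.31 and -0.27 on tetraploid replicates 1 to 3. Diploid replicate 2 and tetraploid replicate 3, the lowest arrays of their fractions for the replication genes, were also the lowest for these markers. Their part in the difference between the fractions was not tested.

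**Figure D4:**
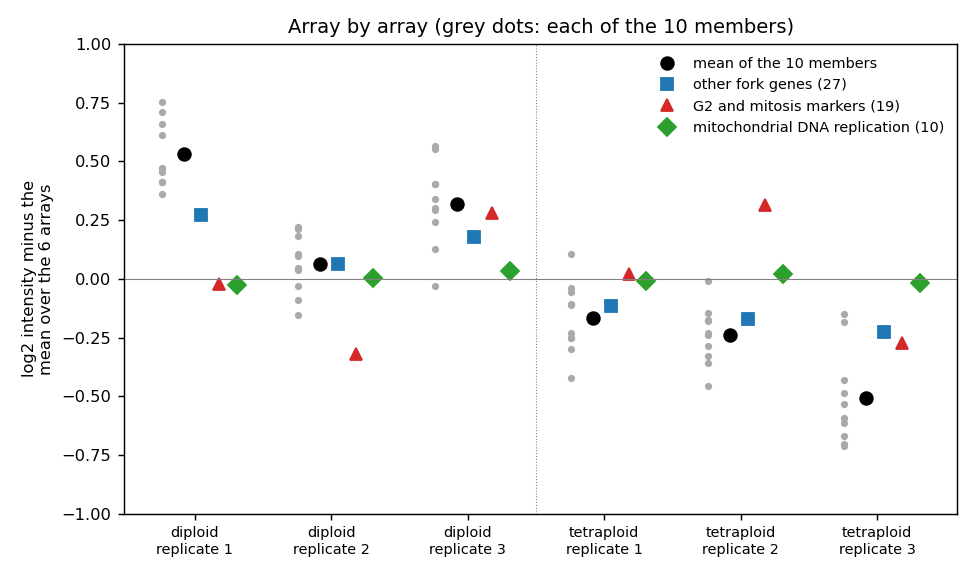
Log2 intensity on each array minus the mean over the 6 arrays, for each of the 10 members (grey dots), their mean (black), and the means of the other fork genes (blue), G2 and mitosis markers (red) and mitochondrial replication genes (green). The black points are above 0 on the diploid arrays and below 0 on the tetraploid arrays, while the red points are high and low within both fractions.

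The 5 genes outside the members whose centred profile over the 6 arrays lay nearest to the mean profile of the 10 were Rrm1, Hat1, Cenpk, Gins1 and Ncaph, among 9285 genes of the brighter 75%. Likeness was the root mean square distance in log2 units, 0.038 for Rrm1, 0.043 for Hat1, 0.071 for Cenpk, 0.072 for Gins1 and 0.086 for Ncaph. The distance of the members themselves from that mean ran from 0.069 for Rfc4 to 0.22 for Pola2. Rrm1, a subunit of ribonucleotide reductase, read 9.37, 8.95 and 9.18 on the diploid arrays and 8.77, 8.60 and 8.41 on the tetraploid arrays. These genes were picked by their values, so their differences are a description.

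Hepatocyte markers were bright in both fractions, with a median log2 level of 14.81 over 15 genes. Their summed intensity was 400322 to 424234 on the diploid and 408393 to 427451 on the tetraploid arrays, and that of the 10 members 7325 to 10932 and 4656 to 6047. The hepatocyte marker Alb was the brightest of all probe sets, with an SD of 0 over the tetraploid arrays. At the top of the scale a change in such markers may not show. Of 10 measured lymphoid markers 8 were lower in tetraploid cells, 4 of them without overlap, and their summed intensity was 303 to 319.6 on the diploid and 277 to 296 on the tetraploid arrays, without overlap. The B cell gene Cd79a differed by -0.42 ± 0.09 (SE; limma adjusted p = 0.328), from 5.202 to 4.78. The other B cell genes of the list were not lower to that extent. Cd79b differed by 0.07 ± 0.12, Ms4a1 by 0.13 ± 0.16 and Vpreb1 by -0.03 ± 0.16 (SE), all with overlap. Ptprc, which marks all leukocytes, differed by -0.02. Mean log2 intensity was 4.99 for Cd79a, just above the cutoff of 4.82 for the dimmest 25% of probe sets, and 4.23 for Ptprc, below it. Of the 10 lymphoid markers, 6 were in that dimmest 25%. The bile duct marker Epcam differed by -0.32 ± 0.10 (SE) without overlap, at a mean log2 intensity of 4.76, in the dimmest 25%. Of 5 such markers 3 were lower, with summed intensities of 165.1 to 188 on the diploid and 165.4 to 167 on the tetraploid arrays. Of 12 endothelial markers 8 were higher in tetraploid cells, with summed intensities of 1216 to 1327 on the diploid and 1281 to 1501 on the tetraploid arrays. At an unadjusted limma p under 0.05, 3 endothelial markers were higher, Mrc1 at 0.35 ± 0.13, Fcgr2b at 0.34 ± 0.13 and Clec4g at 0.34 ± 0.14 (SE), the first 2 without overlap, and 1 of the 12, Flt1, was lower without overlap. Of 10 stellate cell markers 7 were lower (839 to 936 and 895 to 936), with Ngfr at -0.22 ± 0.08 and Pdgfrb at -0.24 ± 0.09 (SE) lower at that threshold and without overlap, and 1, Reln, was higher without overlap. Of 10 macrophage markers 7 were lower (484 to 549 and 435 to 518), and 1, Cd68 at 0.25 ± 0.11 (SE), was higher without overlap. Cd68 was dim, at a mean log2 intensity of 4.41. Of 8 erythroid markers 2 were lower (1055 to 1358 and 1024 to 1486), and 0 lay without overlap. The dimmest 25% of probe sets also held 2 endothelial, 2 macrophage, 2 stellate, 2 bile duct and 4 erythroid markers. The dimmest of all 22626 probe sets had a mean log2 intensity of 3.34, so a value above 0 does not show that a transcript was present. The part of these cells in the lower levels of the replication genes was not tested.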

How the data were processed

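Deposited values were used as they stood. The authors processed the arrays with RMA, per the submitters' processing notes, and deposited linear intensities, 1 for each probe set on each array. The RMA version and software were not given in the sources used. The array medians lay between 85.9 and 88.7, because RMA evens out the arrays, so a difference is relative to the other transcripts of its array. Precision is limited by the 3 arrays of each fraction (median SE 0.099 on the log2 scale).

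After log2 conversion, 64 control probe sets of 22690 were set aside. The annotation gave 1 symbol to 20380 probe sets. No filter on dim probe sets was applied. Limma 3.58.1 in R 4.3.3 compared 3 diploid with 3 tetraploid arrays (lmFit and eBayes, two-sided, ploidy as the single factor), with Benjamini-Hochberg adjustment over 22626 probe sets. On simulated data with these probe sets it recovered 78.2%, 98.5% and 100% of changes of 1.5-fold, 2-fold and 4-fold, and 6.59% of calls were false. The simulated noise was independent and took the fit's own variance estimates as true, so recovery on the real arrays may be lower. In the real fit 72 probe sets were over 1.5-fold lower and 13 over 1.5-fold higher, and 0 passed.

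The members and lists were chosen with earlier results of these data known. Every probe set of a member is described. Genes named from the other lists are among the 4 with the smallest p of their list, apart from some added after their values were seen. Those added were the other subunits of polymerase epsilon, polymerase delta and the clamp loader, and the topoisomerases. Lig3, Alb, Cd79b, Ms4a1, Vpreb1, Ptprc, Flt1 and Reln were also added in that way. Alternatives covered the replicate block, filters, probe set choice, normalization, pseudocount, variance model and each array left out.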

Additional observations from a re-analysis of the deposited data

How the results depend on the processing

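The 10 members had a lower mean in tetraploid cells under all 17 alternatives. By limma 0 passed an adjusted p of 0.05 under any of them, with 7 to 9 lower at an unadjusted p under 0.05. The replicate block, the filters on dim probe sets, the intensity trend and the robust variance model cannot move a difference, only its SE and p. The median ran from -0.74 without diploid replicate 2 to -0.49 without tetraploid replicate 3. The number without overlap was 8 in the main fit and 7 with the mean of all probe sets of a gene. It was 8 to 10 with an array left out, but leaving out an array cannot create an overlap, so this count could not fall. Single values moved by over 1.5 times for Pola2 (-0.09 without diploid replicate 1 and -0.13 with the mean of its probe sets), Rfc3 (-0.34 without diploid replicate 1) and Fen1 (-0.72 with probe sets that can match several transcripts left out, an alternative chosen after seeing the data). Whether arrays of the fractions belong in pairs is not known. Deviations of same-numbered arrays correlated at 0.44, -0.15 and -0.16 over probe sets, so by number only the arrays of replicate 1 were each other's best match. Across numbers, diploid replicate 3 correlated best with tetraploid replicate 2 (0.56) and diploid replicate 2 with tetraploid replicate 3 (0.24), which the labels do not pair, and no fit with such pairs was made. With a replicate block, which leaves the median at -0.60 in this balanced design, 0 members passed. At an unadjusted limma p under 0.05, 9 were lower with that block. Over all probe sets 10 passed with that block, 1 without tetraploid replicate 1, and 0 in the main fit and the other alternatives. With 3 arrays per fraction, a difference whose interval includes 0, as for Pola2, is not resolved.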
